A study of Sus scrofa with 32 samples.

Results

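The 10 genes described here encode natural killer (NK) receptors and the adaptor proteins that carry their signals, 10 of the 25880 genes in the count tables. They were chosen by symbol: the killer lectin-like receptors KLRK1, KLRC1, KLRB1 and KLRG1, the natural cytotoxicity receptors NCR1 and NCR3, the receptor CD226, and the adaptors FCER1G, TYROBP and HCST. They were followed across CD8 T cells, γδ T cells and CD3E=0 CD2>=1 cells, in ileum against blood. Cells came from 2 mixed-breed pigs of 7 weeks, pig 1 labelled female and pig 2 labelled male, with no treatment in the labels. From each pig, ileum containing only Peyer's patches (PP), ileum free of them (non-PP) and a complete cross section (whole ileum) gave 1 single-cell RNA-seq library each, and peripheral blood mononuclear cells (PBMC) gave 1 more, 8 libraries in all. The ileal suspensions joined epithelium, lamina propria and submucosa and were enriched for live lymphocytes, so that no compartment of the gut wall was separated. Ileal tissue was digested with enzymes, whereas PBMC were isolated in cell preparation tubes. A difference between ileum and blood thus cannot be told apart from one of cell isolation. With 2 animals that also differ in labelled sex, a difference between pigs cannot be told apart from one between the sexes.

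NK receptors let lymphocytes read the surface of other cells. KLRK1 (NKG2D) binds stress-induced ligands and has no signalling motif of its own, so it depends on adaptors, above all HCST (DAP10). TYROBP (DAP12) and FCER1G (the Fc receptor γ chain) carry activation motifs that recruit the kinases SYK and ZAP70, and FCER1G pairs with NCR1 and the Fc receptor FCGR3A. KLRC1 (NKG2A) and KLRG1 are inhibitory, and KLRB1 (CD161) marks NK cells, innate lymphoid cells (ILCs) and some T cells. NCR1 (NKp46), NCR3 (NKp30) and CD226 (DNAM-1) are activating. In the gut these receptors are known from intraepithelial lymphocytes and ILCs as well as from NK cells.

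In the RefSeq gene table of assembly Sscrofa11.1, KLRK1 (chr5:61646691-61655386), KLRB1 (chr5:62244787-62257691) and KLRG1 (chr5:62506001-62523969) lie on chromosome 5. HCST (chr6:45304744-45309048) and TYROBP (chr6:45309199-45312562) are neighbours with 150 bases between them, and NCR1 lies further along at chr6:59092258-59099992. FCER1G lies at chr4:89242467-89246344 and CD226 at chr1:152872878-152977162. NCR3 (chr7:23713333-23716988) falls inside the listed span of AIF1 (chr7:23711752-23731191), a myeloid gene. Whether this overlap affected the counts of either gene was not tested. KLRC1, KLRG1 and NCR3 carried only an Ensembl identifier in the tables (ENSSSCG00000000640, ENSSSCG00000000663 and ENSSSCG00000001407) and were named from the study's own list of names. The RefSeq table held no entry under the symbol KLRC1.

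Libraries held 21134542 to 40111934 UMIs (molecules counted once each by their identifier), and 3776 to 7704 cells per library passed the limits on UMIs, genes and mitochondrial share, 48629 in all. Pairs of libraries shared 21 to 80 cell barcodes, at most 1.23% of a library. Classes were set by UMIs of gate genes: CD3E and CD8B for CD8 T cells, CD3E and TRDC for γδ T cells, and CD2 without CD3E for the last class, each with at most 2 UMIs of a B cell list and at most 2 of a myeloid list. Libraries gave 294 to 668 CD8 T cells, 456 to 1157 γδ T cells and 164 to 973 CD3E=0 CD2>=1 cells. The CD3E=0 CD2>=1 class held a UMI or more of all 7 cytotoxic lymphocyte markers on the list, which does not identify a cell type. CD3D, another subunit of the CD3 complex, was detected in 42.1% to 74.8% of its ileal cells and in 28.3% and 41.6% of its blood cells. The class is therefore called by its gate and not by a cell type. Its antibody-secreting cell markers summed to between 158 and 10900 CPM (counts per 1000000 UMIs of the class in that library) in the ileal libraries and to 158 and 463 CPM in blood. The library labelled whole ileum of pig 1 went against its label. Y-linked genes stood at 207 CPM there, against 0.161 and 0.224 CPM in the other ileal libraries of pig 1. The ileal libraries of pig 2 held 185 to 226 CPM. The library in doubt was kept, and each called result was also computed without it.

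KLRG1, the inhibitory receptor that marks terminally matured NK and T cells, separated blood from ileum in all 3 classes. Among CD3E=0 CD2>=1 cells it stood at 404 CPM in the blood of pig 1 and 324 CPM in the blood of pig 2. The ileal libraries held 27.1 CPM (PP pig 1), 2.45 CPM (PP pig 2), 7.35 CPM (non-PP pig 1), 1.56 CPM (non-PP pig 2), 2.72 CPM (whole ileum labelled pig 1) and 3.36 CPM (whole ileum pig 2). Each ileal library thus lay far below both blood libraries. The fitted level was 80.5-fold lower in ileum (log2 difference -6.33 ± 0.70 SE, 2 pigs, edgeR adjusted p = 0.00028). For CD8 T cells, 176 and 104 CPM in blood stood against 2.85 to 4.54 CPM in the 6 ileal libraries, 35.6-fold lower (log2 difference -5.15 ± 0.67, edgeR adjusted p = 0.0013). For γδ T cells, 197 and 61.5 CPM in blood stood against 5.79 to 21.2 CPM in ileum, 10.9-fold lower (log2 difference -3.45 ± 0.58, edgeR adjusted p = 0.0040). Outside the 3 classes, CD4 T cells gave 137 and 105 CPM in blood and 6.95 to 34.8 CPM in ileum. B cells gave 6.76 and 6.90 CPM in blood and 0 to 0.223 CPM in ileum. In myeloid cells the tissues overlapped.

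The share of cells with a KLRG1 UMI followed the same order. After each cell was thinned to the UMI count of the shallowest cell allowed, so that depth was equal, 41.1% and 32.0% of the CD3E=0 CD2>=1 cells of blood held one, against 0% to 1.22% in the ileal libraries. B cells, which should lack KLRG1, held one in 0% to 0.822%, so the ileal shares were near background. Before thinning the blood shares were 57.8% and 54.8% and the ileal shares 0.339% to 5.49%. In barcodes of 10 to 100 UMIs, which mostly hold free RNA, KLRG1 stood at 168 and 81.9 CPM in blood and at 2.84 to 7.98 CPM in ileum.

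**Figure D1:**
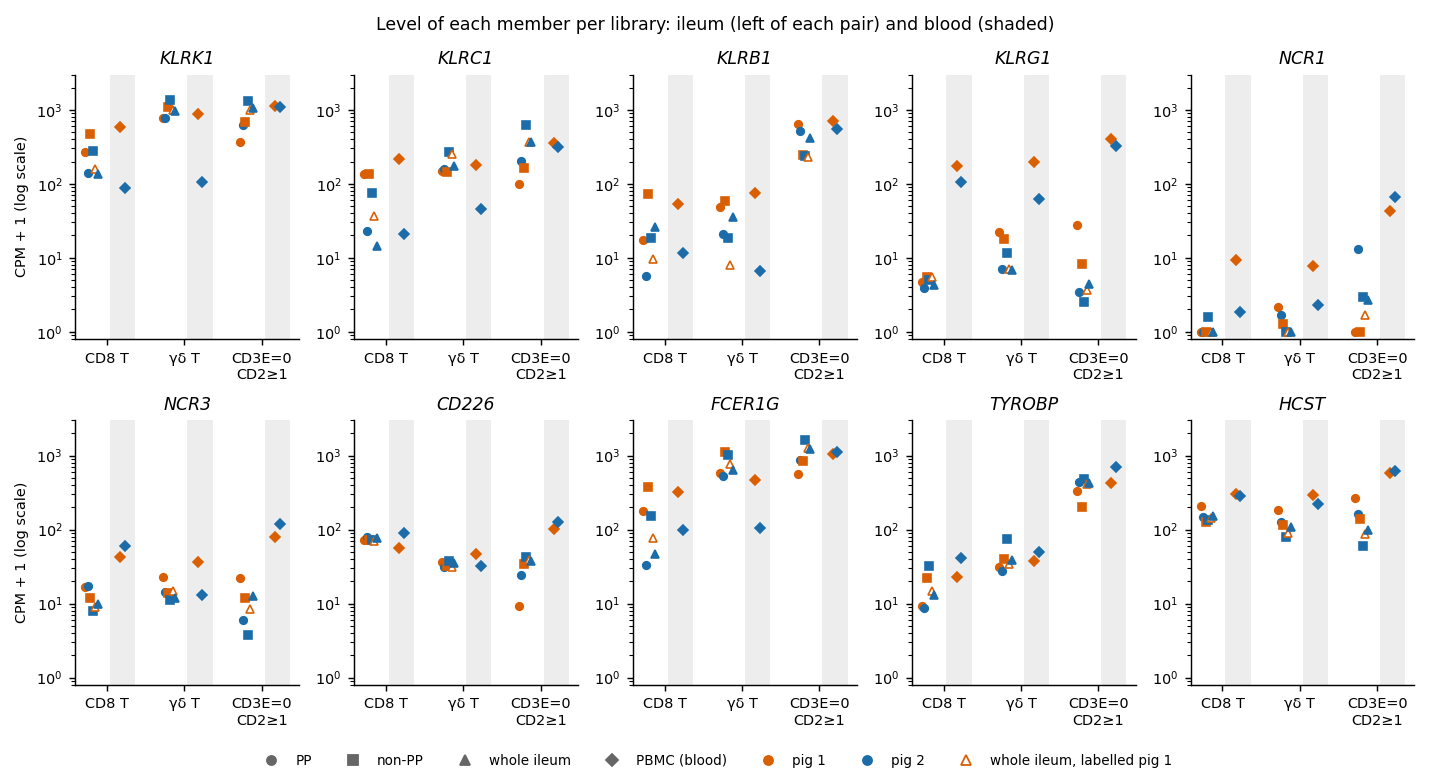
Level of each of the 10 genes in CPM + 1 on a log scale, 1 point per library, in CD8 T, γδ T and CD3E=0 CD2>=1 cells, with the ileal libraries at the left of each pair and the blood libraries shaded. Colour gives the pig and shape the dissection, and the open triangle is the library labelled whole ileum of pig 1. KLRG1 lies at or below 27.1 CPM in every ileal library and at or above 61.5 CPM in every blood library, whereas KLRK1 and FCER1G overlap between tissues in CD3E=0 CD2>=1 cells.

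Across the CD3E=0 CD2>=1 cells, 5 of the 10 genes were called lower in ileum than in blood (KLRG1, NCR1, NCR3, CD226 and HCST) and none was called higher. Of the 9444 genes tested, 8.97% were called lower and 11.3% higher. All 10 passed the filter on low counts, which a gene could pass through 1 tissue or class alone. The median log2 difference of the 10 was -1.43, beside 0.018 over all genes tested. Without the library labelled whole ileum of pig 1 the count was also 5 of 10. The calls over all genes fell without that library, as the last paragraph gives. With the pig as a block the count of the 10 genes was 6, TYROBP being added. The shares of all genes above belong to the main fit. Shares higher and lower for these other fits are not given, so neither count has a background of its own.

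NCR1, which in other species is a defining receptor of NK cells, was at or near 0 in 5 of the 6 ileal libraries. Blood CD3E=0 CD2>=1 cells held it at 42.0 CPM (69 UMIs) and 64.8 CPM (190 UMIs). The ileum gave 1 UMI over the 3 libraries of pig 1 and 16 UMIs over those of pig 2, where PP reached 12.3 CPM and no other library passed 2 CPM. The difference was 22.3-fold (log2 -4.48 ± 0.83, edgeR adjusted p = 0.0046). NCR1 failed the filter on low counts in the fits that held ileum alone or γδ T cells alone. It was thus tested here mainly through the blood CD3E=0 CD2>=1 cells, and calls toward these cells were favoured by the filter. With PP alone as the ileum the log2 difference was -2.82 and the call was lost (edgeR adjusted p = 0.082). In the T cells the counts were too few for a fold: ileal CD8 T cells held 1 UMI and ileal γδ T cells 4, against 22 and 18 in blood.

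NCR3, the activating receptor NKp30, was also lower in ileum. Its level in CD3E=0 CD2>=1 cells was 77.8 and 117 CPM in blood and 2.73 to 20.9 CPM in the 6 ileal libraries, with no overlap. The difference was 14.1-fold (log2 -3.82 ± 0.49, edgeR adjusted p = 0.00062). Among CD8 T cells NCR3 stood at 41.7 and 58.1 CPM in blood and at 6.95 to 16.2 CPM in ileum, 4.82-fold lower (log2 -2.27 ± 0.45, edgeR adjusted p = 0.010). With PP alone as the ileum that call was lost (log2 -1.64, edgeR adjusted p = 0.087). The γδ T cells were not called (log2 -0.88 ± 0.46, edgeR adjusted p = 0.23), and there the blood of pig 2, at 12.1 CPM, lay within the ileal range of 10.3 to 21.8 CPM. When the B and myeloid limits of the gates were dropped, the NCR3 difference in CD3E=0 CD2>=1 cells shrank to -0.34 (edgeR adjusted p = 0.47). Over 2 B cell list UMIs were then present in 0.493% to 67.6% of the ileal cells and in 17.7% and 8.81% of the blood cells of pig 1 and pig 2. Over 2 myeloid list UMIs were present in 1.97% to 4.14% of the ileal cells and in 14.0% and 36.6% of the blood cells. The part of either in the change was not tested.

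CD226, which binds nectin family ligands on target cells, was called between tissues in CD3E=0 CD2>=1 cells. There it stood at 102 and 125 CPM in blood and at 8.35 to 41.4 CPM in ileum, 3.49-fold lower (log2 -1.80 ± 0.24, edgeR adjusted p = 0.00074). In CD8 T cells the ileal libraries, at 68.2 to 78.0 CPM, lay between the 56.1 and 90.1 CPM of the blood libraries (log2 -0.062 ± 0.23, edgeR adjusted p = 0.90). The γδ T cells gave 29.9 to 36.9 CPM in ileum and 45.6 and 31.1 CPM in blood (log2 -0.19 ± 0.24, edgeR adjusted p = 0.64). The test of the difference between the CD3E=0 CD2>=1 cells and the mean of the T cells gave -1.67 ± 0.29 on the log2 scale without passing the threshold (edgeR adjusted p = 0.071). With the pig as a block that difference was called (edgeR adjusted p = 0.016).

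**Figure D2:**
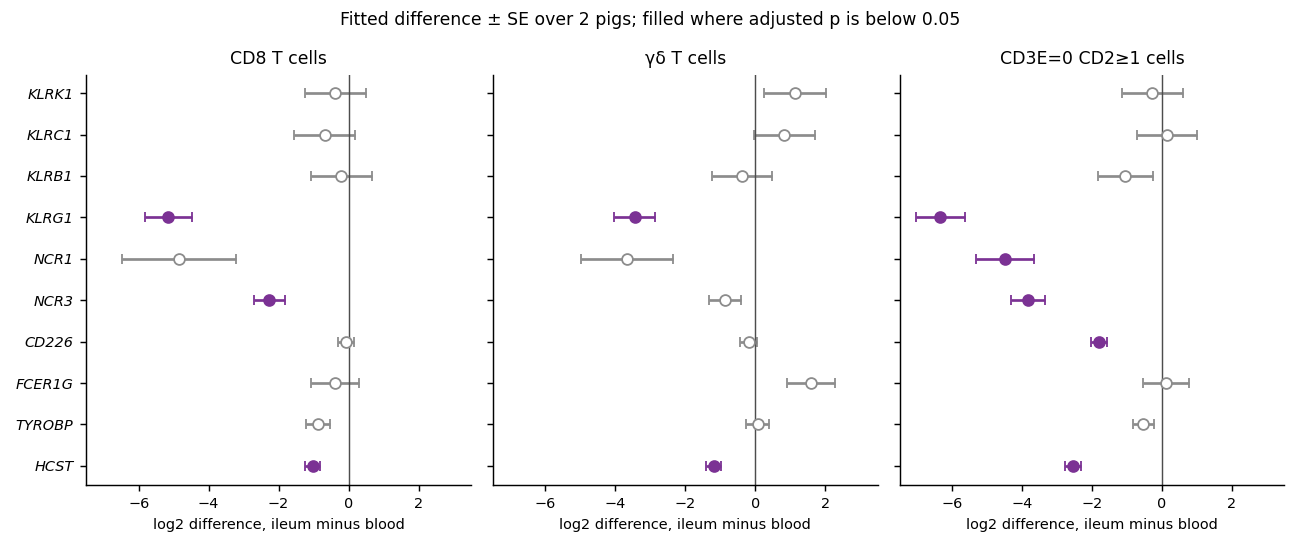
Fitted log2 difference of ileum minus blood for each of the 10 genes in CD8 T, γδ T and CD3E=0 CD2>=1 cells, with bars of 1 SE over 2 pigs and filled points where the edgeR adjusted p is below 0.05. The filled points are KLRG1, NCR1, NCR3, CD226 and HCST in CD3E=0 CD2>=1 cells, KLRG1, NCR3 and HCST in CD8 T cells, and KLRG1 and HCST in γδ T cells, all left of 0.

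HCST, the adaptor of KLRK1, was lower in ileum in every class. Blood CD3E=0 CD2>=1 cells held 584 and 626 CPM. The ileal libraries held 265 and 163 CPM in PP, 140 and 59.7 CPM in non-PP, and 85.7 and 97.3 CPM in whole ileum (pig 1 and pig 2 in each pair, by label). The difference was 5.83-fold (log2 -2.54 ± 0.23, edgeR adjusted p = 0.00011). CD8 T cells held 300 and 280 CPM in blood and 126 to 209 CPM in ileum (log2 -1.02 ± 0.22, edgeR adjusted p = 0.016). γδ T cells held 295 and 220 CPM in blood and 78.9 to 185 CPM in ileum (log2 -1.19 ± 0.22, edgeR adjusted p = 0.0063). Tissues did not overlap in any of the 3 classes. Without the library labelled whole ileum of pig 1, however, the calls in CD8 and γδ T cells were lost (edgeR adjusted p = 0.14 and 0.079) at log2 differences of -0.97 and -1.12. With PP alone as the ileum they were also lost (log2 -0.69 in each class, edgeR adjusted p = 0.15 and 0.13). The call in CD8 T cells was lost as well with non-PP alone (log2 -1.19, edgeR adjusted p = 0.097) and with sums per library (log2 -0.94, edgeR adjusted p = 0.078).

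In CD8 T cells 3 of the 10 genes were called lower in ileum (KLRG1, NCR3 and HCST) and none higher, where 5.6% of 9444 genes were lower and 5.74% higher. In γδ T cells 2 were called lower (KLRG1 and HCST) and none higher, where 6.68% were lower and 7.86% higher. With the pig as a block TYROBP joined the lower genes of CD8 T cells (log2 -0.81, edgeR adjusted p = 0.0052) and FCER1G was called higher in ileal γδ T cells (log2 1.82, edgeR adjusted p = 0.028).

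KLRK1 itself showed no tissue difference past the threshold. In CD3E=0 CD2>=1 cells it stood at 1125 and 1093 CPM in blood and at 367, 616, 689, 1303, 1000 and 1052 CPM in PP pig 1, PP pig 2, non-PP pig 1, non-PP pig 2, whole ileum labelled pig 1 and whole ileum pig 2 (log2 -0.27 ± 0.87, edgeR adjusted p = 0.87). The PP libraries were the low ones and the ranges overlapped. The SE is pooled over classes and tissues, so it does not show how close the pigs were in this class. In γδ T cells the 6 ileal libraries held 778 to 1353 CPM. The blood of pig 1 held 873 CPM and the blood of pig 2 only 103 CPM, an 8.44-fold gap between the animals. The ileal sums of the pigs by label, 994 and 1115 CPM, did not show it. CD8 T cells of blood repeated the gap at 585 and 86.5 CPM, with 136 to 474 CPM in ileum. The tissue differences were 1.14 ± 0.88 in γδ T cells (edgeR adjusted p = 0.43) and -0.38 ± 0.87 in CD8 T cells (edgeR adjusted p = 0.83) on the log2 scale.

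KLRC1, which forms an inhibitory receptor with KLRD1, had the same layout. In γδ T cells blood gave 176 CPM in pig 1 and 45.1 CPM in pig 2, against 145 to 266 CPM in ileum (log2 0.83 ± 0.87, edgeR adjusted p = 0.57). In CD8 T cells blood gave 217 and 19.7 CPM, and the ileum 13.2 to 137 CPM. In CD3E=0 CD2>=1 cells the pigs were close in blood, at 350 and 312 CPM, and the ileum spanned 98.1 to 622 CPM with non-PP pig 2 at the top (log2 0.14 ± 0.85, edgeR adjusted p = 0.93).

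FCER1G, the shared signalling chain of Fc receptors and NCR1, also differed between the animals in the T cells of blood. In γδ T cells it stood at 467 and 105 CPM in blood and at 537 to 1105 CPM in ileum, so that every ileal library lay above both blood libraries, although the call was not made (log2 1.59 ± 0.68, edgeR adjusted p = 0.15). In CD8 T cells the blood of pig 1 held 318 CPM and that of pig 2 97.1 CPM, and the ileum spanned 32.3 to 375 CPM (log2 -0.39 ± 0.67, edgeR adjusted p = 0.76). For CD3E=0 CD2>=1 cells blood stood at 1046 and 1119 CPM and the ileum between 555 and 1639 CPM (log2 0.11 ± 0.67, edgeR adjusted p = 0.93). In the low-UMI barcodes FCER1G stood at 212 to 1194 CPM and KLRK1 at 186 to 1107 CPM, while B cells of the same libraries held 9.26 to 55.3 CPM of FCER1G and 5.33 to 85.5 CPM of KLRK1.

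HCST was detected in a smaller share of the KLRK1-positive cells of ileum than of blood, and the same held for cells without a KLRK1 UMI. Among thinned CD3E=0 CD2>=1 cells, HCST was found in 248 of 407 KLRK1-positive cells (60.9%) of pig 1 and 377 of 612 (61.6%) of pig 2 in blood. In ileum it was found in 26.5% and 10.6% of them in PP, 14.3% and 5.08% in non-PP, and 3.68% and 7.52% in whole ileum, all below the blood shares. In CD3E=0 CD2>=1 cells without a KLRK1 UMI it was found in 44.0% and 40.2% in blood and in 9.45% to 27.7% in the ileal libraries. Before thinning, the shares were 75.2% and 85.4% in blood and 8.49% to 37.5% in ileum. FCER1G, by contrast, was found in 81.3% and 84.5% of the KLRK1-positive cells in blood and in 70.3% to 87.0% in ileum, so that these ranges overlapped. TYROBP was found in 48.6% and 66.8% in blood. In ileum its shares were 25.3%, 40.1%, 44.9%, 47.4% and 48.1%, and in PP pig 1, where 17 of 34 cells held it, the share lay above that of the blood of pig 1, so these ranges overlapped too. γδ T cells gave the same order for HCST, with 31.9% and 22.9% in blood and 6.25% to 14.3% in ileum. Cells are not replicates and these shares carry no test.

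**Figure D3:**
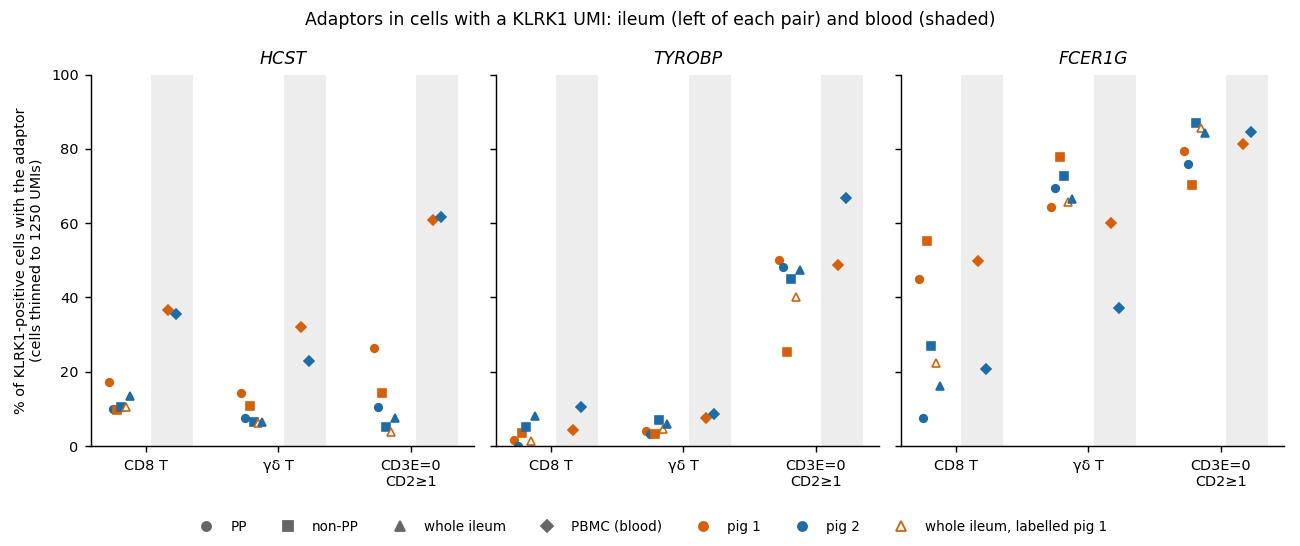
Percent of cells with a KLRK1 UMI that also held a UMI of HCST, TYROBP or FCER1G, 1 point per library, in thinned cells of equal depth, with ileum at the left of each pair and blood shaded. In CD3E=0 CD2>=1 cells HCST lies at 3.68% to 26.5% in ileum and at 60.9% and 61.6% in blood, whereas FCER1G lies between 70.3% and 87.0% in ileum.

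TYROBP, the adaptor of activating lectin-like receptors and of many myeloid receptors, set the CD3E=0 CD2>=1 cells apart from the T cells in both tissues. The class held 431 and 703 CPM in blood and 200 to 488 CPM in ileum, while CD8 T cells held 7.61 to 39.8 CPM and γδ T cells 26.4 to 74.5 CPM over the 8 libraries. The classes did not overlap. TYROBP was 13.9-fold higher than in the mean of the T cells in ileum (log2 3.80 ± 0.27, edgeR adjusted p = 0.00011) and 15.3-fold higher in blood (log2 3.94 ± 0.27, edgeR adjusted p = 9.1e-05). Between tissues the class was not called (log2 -0.54 ± 0.30, edgeR adjusted p = 0.25), and with the pig as a block it was called lower in ileum (log2 -0.51, edgeR adjusted p = 0.011), as it was after thinning (log2 -0.84, edgeR adjusted p = 0.022). The myeloid list summed to 78.9 to 215 CPM in this class in ileum and to 57.2 and 107 CPM in blood, and the part of myeloid RNA in TYROBP was not tested.

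KLRB1 was also called higher in the CD3E=0 CD2>=1 cells than in the T cells in both tissues. Blood held 705 and 546 CPM and the ileal libraries 233 to 643 CPM, while CD8 T cells held 4.75 to 70.8 CPM and γδ T cells 5.71 to 74.5 CPM. It was 10.2-fold higher than in the T cells of ileum (log2 3.36 ± 0.68, edgeR adjusted p = 0.028) and 17.4-fold higher than in those of blood (log2 4.12 ± 0.70, edgeR adjusted p = 0.013). The ileal call was lost without the library labelled whole ileum of pig 1 (log2 3.30, edgeR adjusted p = 0.13), with non-PP alone as the ileum (log2 2.46, edgeR adjusted p = 0.37) and without the B and myeloid limits of the gates (edgeR adjusted p = 0.070). Between tissues KLRB1 gave -1.05 ± 0.79 on the log2 scale (edgeR adjusted p = 0.39).

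In ileum TYROBP and KLRB1 were the 2 of 10 genes called higher in the CD3E=0 CD2>=1 cells than in the T cells, where 2.64% of the 9444 genes were called higher and 0.752% lower. In blood 5 of 10 were called higher (TYROBP, KLRB1, NCR1, HCST and CD226), where 2.56% were called higher and 0.773% lower. NCR1 was 12.6-fold, HCST 2.21-fold and CD226 2.12-fold higher there (edgeR adjusted p = 0.014, 0.011 and 0.017). Without the library labelled whole ileum of pig 1 the calls over all genes fell, and 3 of the 10 remained called in blood. HCST and CD226 passed to edgeR adjusted p = 0.10 and 0.071. Without the B and myeloid limits of the gates these 2 stood at log2 0.21 and -0.059 (edgeR adjusted p = 0.50 and 0.94), and the call of NCR1 was lost too (log2 2.33, edgeR adjusted p = 0.053). With cells of at least 2000 UMIs the calls of NCR1, HCST and CD226 were lost (edgeR adjusted p = 0.052, 0.052 and 0.14). With non-PP alone as the ileum those of KLRB1, CD226 and HCST were lost (edgeR adjusted p = 0.056, 0.050 and 0.13), with PP alone that of CD226 (edgeR adjusted p = 0.052) and with sums per library that of HCST (edgeR adjusted p = 0.095). With the pig as a block 8 were called in blood and 3 in ileum, FCER1G, KLRG1 and NCR3 being added in blood and FCER1G in ileum. The calls over all genes rose with the block too, as the last paragraph gives. For the difference of the tissue effect between the classes, none of the 10 was called, where 0.0212% of genes were higher and 0.148% lower. By edgeR, 4 of the 10 had an unadjusted p under 0.05 there (CD226, HCST, NCR3 and KLRG1). The share of all genes at that level was not computed. DESeq2 called 3, and over all genes it also called more than the main fit. With the pig as a block HCST (log2 -1.47, edgeR adjusted p = 0.0080) and CD226 were called.

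γδ T cells were divided by CD2, which separates the circulating γδ T subsets of pigs. CD2=0 means only that no CD2 UMI was counted, so shallow cells of the other subset can fall in it. In blood the median UMIs were 4328 and 3336.5 in CD2>=1 cells against 2150 and 2301 in CD2=0 cells (pig 1 and pig 2). CD2=0 cells were the shallower in each ileal library too. CD2>=1 γδ T cells held 1101 and 204 CPM of KLRK1 in blood against 462 and 24.9 CPM in CD2=0 γδ T cells, and 1079 and 1289 CPM against 621 and 478 CPM in ileum (pig 1 and pig 2). FCER1G stood at 573 and 165 CPM against 276 and 57.7 CPM in blood, and at 967 and 927 CPM against 571 and 356 CPM in ileum. KLRC1 stood at 233 and 88.2 CPM against 74.0 and 11.3 CPM in blood, and at 195 and 255 CPM against 82.5 and 79.7 CPM in ileum. Each of the 3 was thus higher beside CD2 in each pig and tissue, as were TYROBP, CD226 and NCR3. HCST was lower beside CD2 in each pig and tissue. It stood at 269 and 215 CPM against 343 and 223 CPM in blood, and at 119 and 89.8 CPM against 145 and 126 CPM in ileum. KLRG1 was higher beside CD2 in blood and lower in ileum, and KLRB1 was lower only in ileum of pig 2. Of 7581 genes, 0.0132% were called higher in each tissue, and 0.0791% and 0.303% lower in ileum and blood. None of the 9 genes tested was called by edgeR in either tissue. At an unadjusted p under 0.05 there were 2 in ileum (TYROBP and KLRC1) and 2 in blood (CD226 and KLRC1). The share of all genes at that level was not computed. DESeq2 called 0 in each. KLRC1 gave 1.42 ± 0.60 in ileum and 1.93 ± 0.67 in blood on the log2 scale (edgeR adjusted p = 0.86 and 0.34). With the pig as a block TYROBP was called in ileum (log2 1.36, edgeR adjusted p = 0.020).

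Between PP and non-PP, over the mean of the 3 classes, none of the 9 genes tested was called by edgeR, where 1.31% of 8240 genes were called higher in PP and 0.546% lower. At an unadjusted p under 0.05 there were 5, with HCST and NCR3 toward PP and KLRK1, TYROBP and FCER1G toward non-PP. The share of all genes at that level was not computed, so this count has no background. DESeq2 called 2. Over all genes, DESeq2 and the fit with the pig as a block each called more than the main fit, as the last paragraph gives. NCR3, which was also found in B cells, gave log2 0.95 ± 0.38, and 0.48 ± 0.56 after ambient subtraction (edgeR adjusted p = 0.26 and 0.83). The part of B cell RNA in that difference was not tested. HCST gave 0.83 ± 0.23 (edgeR adjusted p = 0.12), KLRK1 -0.78 ± 0.23 (edgeR adjusted p = 0.14) and TYROBP -0.77 ± 0.25 (edgeR adjusted p = 0.16) on the log2 scale. These 3 were called with the pig as a block (edgeR adjusted p = 0.0017, 0.038 and 0.021). Both fits held 12 sums, the 3 classes of only 2 PP and 2 non-PP libraries. Classes of the same library were treated as independent, so the p-values do not measure the spread between libraries.

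Outside the 3 classes NCR3 was also found in B cells. B cells held 62.8 to 80.2 CPM of NCR3 in the 6 ileal libraries and 36.1 and 50.5 CPM in blood, and CD4 T cells held 0 to 10.9 CPM and myeloid cells 0 to 9.27 CPM over all 8. In the non-PP libraries the low-UMI barcodes held 5.92 and 4.63 CPM of NCR3 while their 14 and 46 B cells held 69.1 and 76.0 CPM. Those B cells summed to only 72341 and 210430 UMIs over all genes, so these 2 levels rest on few NCR3 UMIs. The low-UMI barcodes of the other ileal libraries held 37.3 to 48.0 CPM, and those of blood, at 60.5 and 40.1 CPM, were not all below the B cells of blood. The myeloid cells, gated partly on AIF1, were low in NCR3. TYROBP and FCER1G were high in myeloid cells, at 567 to 1832 CPM and 519 to 994 CPM in ileum and at 2878 and 2898 CPM and 1951 and 1639 CPM in blood. CD4 T cells held less of both, with 0 to 35.7 CPM of TYROBP and 9.27 to 84.2 CPM of FCER1G.

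**Figure D4:**
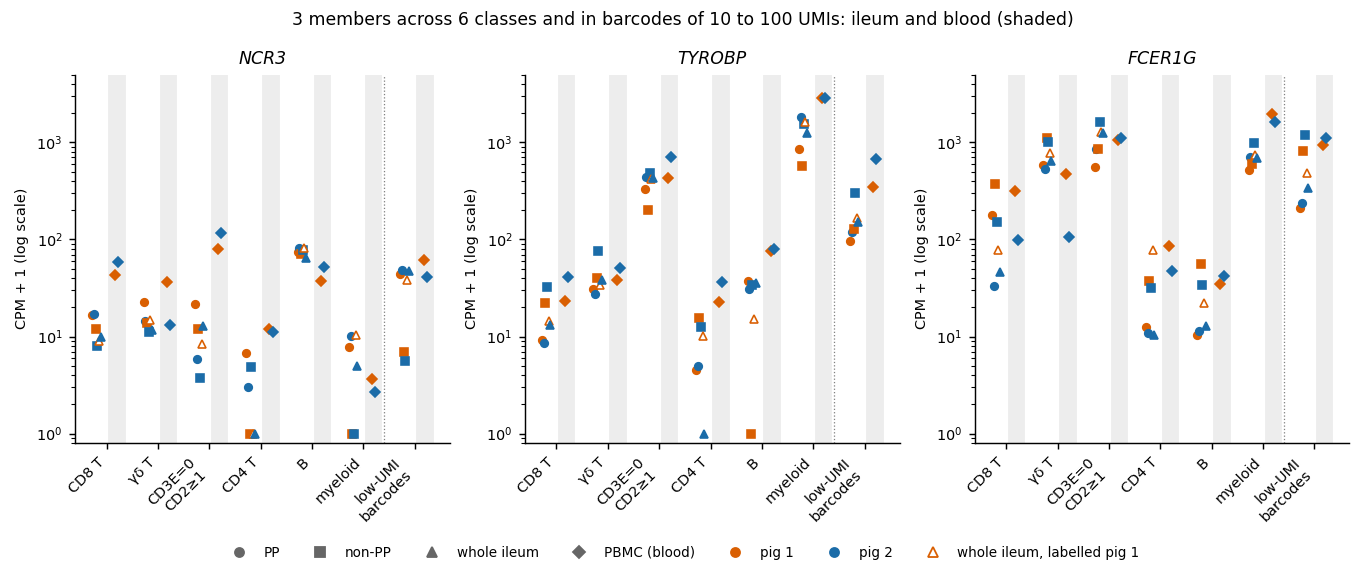
CPM + 1 on a log scale of NCR3, TYROBP and FCER1G in 6 classes and in low-UMI barcodes (10 to 100 UMIs), 1 point per library, with ileum at the left of each pair and blood shaded. NCR3 lies between 36.1 and 80.2 CPM in B cells of all 8 libraries, and TYROBP is highest in myeloid cells.

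Among the other NK receptors on a list of 16 genes, 8 could be tested. In CD3E=0 CD2>=1 cells 2 were called higher in ileum and 2 lower, with a median log2 difference of 0.53. Over all 9444 genes tested, 11.3% were called higher and 8.97% lower. CRTAM, an adhesion receptor of activated cytotoxic cells (2.90 ± 0.56, edgeR adjusted p = 0.0056), and CD96, which shares ligands with CD226 (2.29 ± 0.50, edgeR adjusted p = 0.011), were higher. The Fc receptor FCGR3A (-1.57 ± 0.40, edgeR adjusted p = 0.021) and KLRF1 (-3.29 ± 0.93, edgeR adjusted p = 0.041) were lower. In CD8 T cells 2 of 8 were called higher (CRTAM and CD96) and none lower, where 5.74% of all genes were higher and 5.6% lower. In γδ T cells CRTAM, CD96 and CD244 were higher and SLAMF7 was lower, where 7.86% of all genes were higher and 6.68% lower.

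Of 21 genes of signalling after NK receptors 20 were tested. In CD3E=0 CD2>=1 cells 5 were called higher in ileum and 3 lower, with a median of 0.015. The counts were 6 and 2 in CD8 T cells and 7 and 1 in γδ T cells. Over all genes the shares higher and lower were 11.3% and 8.97% in CD3E=0 CD2>=1 cells. They were 5.74% and 5.6% in CD8 T cells, and 7.86% and 6.68% in γδ T cells. PIK3R1, the regulatory subunit of the kinase that HCST recruits, was higher in ileum in CD3E=0 CD2>=1, CD8 T and γδ T cells by 1.78 ± 0.18, 2.24 ± 0.19 and 2.57 ± 0.19 on the log2 scale (edgeR adjusted p = 0.00018, 0.00012 and 4.9e-05). SH2D1A, the adaptor of SLAM family receptors, was lower in CD3E=0 CD2>=1 cells (-2.48 ± 0.54, edgeR adjusted p = 0.010). Between classes, SYK, the kinase of the TYROBP and FCER1G motifs, was higher in CD3E=0 CD2>=1 than in T cells in ileum (3.77 ± 0.42, edgeR adjusted p = 0.0021) and blood (3.08 ± 0.43, edgeR adjusted p = 0.0057), and ZAP70 was lower (-1.50 ± 0.21 and -1.36 ± 0.21, edgeR adjusted p = 0.0054 and 0.0090). Of 12 ligand genes 3 were tested, and CDH1, the E-cadherin bound by KLRG1, was higher in ileum in all 3 classes (log2 3.31, 3.12 and 3.38, edgeR adjusted p = 0.030, 0.015 and 0.0063). In CD3E=0 CD2>=1 cells 1 of the 3 was called lower in ileum, and in the T cells none was. Epithelial markers summed to 166 to 2229 CPM in the ileal CD3E=0 CD2>=1 cells and were at 0 in those of blood. The part of epithelial RNA in CDH1 was not tested in any class.

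The genes whose level was most like that of each receptor or adaptor were found by Pearson r of log2 CPM over 28 sums of 7 classes, 2 tissues and 2 pigs, which share libraries and class make-up and carry no test. CCL5, a chemokine of cytotoxic cells, was nearest to KLRK1 (r = 0.932), ahead of SNTB2 and PPM1A, and SNTB2 was nearest to KLRC1 (r = 0.922). GNLY (r = 0.876), ADGRG1 and MATK were nearest to KLRB1. S100A13 (r = 0.923) and SPN were nearest to KLRG1, and SPN was also nearest to HCST (r = 0.928). UBASH3A (r = 0.959), CTSW and PRKCH were nearest to CD226. FOXO3 was nearest to FCER1G (r = 0.902), GINM1 to TYROBP (r = 0.898), GPER1 to NCR1 (r = 0.912) and ARPC5L to NCR3 (r = 0.830).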

How the data were processed

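Raw UMI counts per gene and barcode were deposited by the authors, made with Cell Ranger (version 4.0.6 in the submitters' processing notes) from reads aligned to Sus scrofa 11.1 with a modified annotation, before removal of ambient RNA, poor cells and doublets. The 32 labelled samples are 4 runs of each of 8 libraries, and a library was taken as 1 sample. Cells with at least 1250 UMIs, 550 genes and at most 12.5% mitochondrial UMIs were gated on raw UMIs. The members, gene lists and gates were chosen with earlier results of these data known.

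Counts were summed per pig, tissue and class and tested with edgeR's quasi-likelihood test (filterByExpr, TMM, Benjamini-Hochberg over all genes tested, adjusted p below 0.05), with 2 pigs as replicates. The p-values rest on differences between these 2 animals as labelled, pooled over the classes and tissues. The main fit had no pig term, so sums of the same pig were treated as independent. The p-values and SE are thus no measure of the spread among pigs at large. Sums of the 3 classes and 2 tissues shared 1 fit of 12 sums with 6 residual degrees of freedom. SE is the log2 difference over the root of F, with 1 spread per gene pooled over all groups of a fit. It does not show how close the pigs were within 1 class. CPM was computed per sum. Intervals and shares cover counting error only. No matrix column belonged to another sample.

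Pigs pair the sums because both tissues came from the same animals by label, and the pig was used as a block in an alternative. The library labelled whole ileum of pig 1 entered the ileal sums of pig 1. In CD3E=0 CD2>=1 cells it gave 1470764 UMIs, against 479092 in PP and 544237 in non-PP of pig 1. If its label is wrong, these sums mix the animals, in the main fit and with the block. The block was not fitted without that library. The comparison of PP and non-PP did not use it. Over 6312 genes the deviations of the pigs correlated at 0.072 to 0.596 between the 6 class and tissue groups. The main fit was tested on simulated sums with 1 dispersion for all genes, for ileum minus blood in CD3E=0 CD2>=1 cells. It recovered 24 of 100 genes with a log2 change of 1 and 96 of 100 with a change of 2. A result not called near log2 1 is thus no evidence of equal levels.

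Doublets were scored with Scrublet in scanpy 1.11.5 (expected rate 0.07, threshold 0.25, 2.72% to 3.75% of cells per library) and left out in an alternative. Other alternatives were DESeq2 1.42.0, no low-count filter, other gates, thinning, subtraction of 10% ambient RNA, sums per library, single dissections and leaving out pigs or the doubtful library. Named genes were the 10 members, the 4 genes of each list with the smallest p and the 3 genes most like each member. R 4.3.3, edgeR 4.0.16, limma 3.58.1, Python 3.11.15, numpy 2.4.6, scipy 1.17.1 and pandas 2.3.3 were used. A split of the CD3E=0 CD2>=1 cells by marker genes is not reported here. No sequence was printed, since only gene tables were at hand.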

Additional observations from a re-analysis of the deposited data

Results flagged for a closer look

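In 7 of 30 groups of 6 ileal libraries 1 library stood apart from the other 5 by Dixon's ratio (critical value 0.625). The groups reuse the same 6 libraries, which differ in dissection, and some hold few UMIs. The count of 7 is therefore not set against a rate from chance. HCST in CD8 T cells was 208.76 CPM in PP pig 1 and 125.64 to 151.84 CPM in the others. KLRB1 in CD8 T cells was 70.8 CPM in non-PP pig 1 and 4.75 to 25.3 CPM in the others. KLRG1 in CD3E=0 CD2>=1 cells was 27.135 CPM in PP pig 1 and 1.56 to 7.35 CPM in the others. NCR1 in CD3E=0 CD2>=1 cells was 12.266 CPM in PP pig 2 and 0 to 1.95 CPM in the others, and in CD8 T cells it was 0.57946 CPM (1 UMI) in non-PP pig 2 and 0 in the others. NCR3 in γδ T cells was 21.834 CPM in PP pig 1 and 10.3 to 13.9 CPM in the others. TYROBP in γδ T cells was 74.488 CPM in non-PP pig 2 and 26.4 to 39.5 CPM in the others.

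FCER1G was flagged because ileum minus blood had opposite signs in the T cell classes of both pigs. On log2 of CPM + 0.5, it was -0.448 and -0.099 in CD8 T cells of pig 1 and pig 2, and 0.935 and 2.935 in γδ T cells. In CD8 T cells of pig 2 the levels were 90.6 CPM in ileum and 97.1 CPM in blood. Their 95% counting intervals overlapped (81.2 to 101 and 87.1 to 108 CPM), so no movement is shown there. The mean difference between the classes was -2.208, and it was not tested.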

How the results depend on the processing

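Of 1020 values of the 10 genes under alternatives, 865 kept direction and side of the threshold, 43 turned sign without a call on either side, 24 of called results lost the call, 86 gained one and 2 reversed. Both reversals came without the B and myeloid limits of the gates: NCR3 in CD3E=0 CD2>=1 against T cells of ileum passed from -0.79 to 1.33 on the log2 scale, and CD226 in blood from 1.08 to -0.059. Of 17 called results, 7 kept the call under every alternative that could be fitted. The cause of the changes was not tested. Leaving out 1 pig, by label, leaves no residual degrees of freedom, so it gives a value with no test. Of those 174 values 11 turned sign, none of them among the 34 of called results. Without pig 1, ileum minus blood in CD8 T cells passed to 1.20 for KLRK1, 1.13 for KLRC1 and 0.54 for KLRB1 on the log2 scale, and KLRB1 in γδ T cells to 1.97.

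Counts of genes called over all genes moved by over 1.5 times as follows. In order, the comparisons are ileum minus blood in CD8 T cells (1071), γδ T cells (1373) and CD3E=0 CD2>=1 cells (1918), CD3E=0 CD2>=1 against T cells in ileum (320) and blood (315), the difference of tissue effects (16), CD2>=1 against CD2=0 γδ T cells in ileum (7) and blood (24), and PP against non-PP (153). With the pig as a replicate block the counts were 1859 and 2172 in CD8 and γδ T cells, 751, 800 and 54 in the class comparisons, 98 and 211 by CD2, and 695 for PP. Without a filter on low counts they were 1704 in CD8 T cells, 1009, 943 and 297, then 233 and 448, and 807. Without the library labelled whole ileum of pig 1 they were 586, 848 and 1129 for the tissues, and 34, 105 and 2 for the classes. With non-PP alone as ileum they were 518, 763, 959, 2, 92 and 1, and with PP alone 505, 627, 1032, 155 and 193. Without the B and myeloid limits they were 3131, 731, 1591 and 258 from the third comparison on. Thinning gave 181 in ileum, 28 for the difference and 40 by CD2 in blood. The gate of CD3E=0 CD2>=1 cells that also barred CD3D, CD4, CD8B and TRDC gave 702 in ileum and 90 for the difference. Sums per library gave 954 and 85 there. Cells of at least 2000 UMIs gave 71 in blood and 3 for the difference. DESeq2 gave 93 for the difference, 33 and 93 by CD2 and 238 for PP. Ambient subtraction gave 21 by CD2 in ileum and 29 for PP.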
